A study of Mus musculus with 8 samples.

Results

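The Cyp2c family of the mouse liver was examined in RNA-Seq libraries from 8 livers, 4 from WT and 4 from hepatocyte miR-33 knockout (HKO) male mice. Its 10 members, Cyp2c29, Cyp2c37, Cyp2c38, Cyp2c39, Cyp2c40, Cyp2c50, Cyp2c54, Cyp2c55, Cyp2c69 and Cyp2c70, were chosen by gene symbol and make up 10 of the 17810 genes listed. The table holds 5 further Cyp2c rows, which are Cyp2c23, Cyp2c67, Cyp2c68, Cyp2c65 and the pseudogene Cyp2c53-ps, and they are mentioned where the members are compared with them. HKO mice carry miR-33 loxP/loxP alleles and Cre recombinase under the albumin promoter, which is active in hepatocytes. Whether other cells of these livers kept the microRNA was not measured in this table. WT mice were their littermates. Mice of both groups were 8 weeks old when they began the CD-HFD, a high-fat diet deficient in choline. They ate it for 3 months, their livers were taken at 5 months, and each liver gave 1 library. The comparison of HKO with WT livers addresses which transcripts differ when hepatocytes lack miR-33 during early diet-induced steatosis. The deleted microRNA was not measured in this table, and each liver's genotype rests on its label.

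CYP2C enzymes are haem-containing monooxygenases of the endoplasmic reticulum. They receive electrons from the NADPH-cytochrome P450 reductase encoded by Por. Most of them oxidise drugs and polyunsaturated fatty acids, and the epoxides they form from arachidonic acid are cleared by the epoxide hydrolases encoded by Ephx1 and Ephx2. Cyp2c70 is the exception in its best known task, because it makes the muricholic acids that set the bile acids of mice apart from those of humans. In hepatocytes the family is known to respond to the nuclear receptors CAR and PXR, to HNF4A and to the sex-dependent pattern of growth hormone release.

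Totals ran from 12174339 to 18735785 estimated counts per liver, at which 3 counts correspond to 0.16 to 0.246 CPM (counts after scaling all libraries to one total), a floor that covers counting error only. WT and HKO livers were apart on the first principal component (36.2% of the variance). The column names of the table end in the numbers 55 to 58 for HKO and 59 to 62 for WT libraries. What these numbers count was not given in the sources used here, and a library order that followed them cannot be told apart from genotype. Hepatocyte markers were present in every liver, with a summed level of 76247 to 110148 CPM in WT and 66212 to 120458 CPM in HKO livers for the 6 genes of the list. In bulk tissue, fewer cells of a type and less RNA per cell cannot be told apart. HKO replicate 3 stood apart in many Cyp2c genes, and results that rest on it are therefore given with and without it. This liver was singled out after its values were seen.

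All 10 members passed the expression filter and were tested. With edgeR's quasi-likelihood test, 4 members were higher in HKO livers at an adjusted p under 0.05, namely Cyp2c37, Cyp2c50, Cyp2c54 and Cyp2c70, against a background of 1.66% of the 12395 genes tested. No member was called lower, where the background was 3.37%. DESeq2 and limma-voom each called these 4 members higher, with backgrounds of 2.97% and 1.61%. Both of these tools called 2 members lower, Cyp2c38 and Cyp2c39, with backgrounds of 4.70% for DESeq2 and 3.25% for limma-voom. The median log2 fold change was 0.70 over the 10 members, 0.46 over all 13 Cyp2c genes tested and 0.01 over all genes tested. CPM values of the 4 HKO livers lay above all WT values in 4 members and below all WT values in 2 members, as they did in 5.36% and 7.21% of all genes tested. Scaling by total counts left 4 members called higher, but over all genes it changed the split from 206 higher and 418 lower to 119 higher and 621 lower. The number called higher was 2 members without WT replicate 1, WT replicate 2, WT replicate 3, HKO replicate 2 or HKO replicate 4. The share of all genes called higher was smaller in these fits too, at 0.590%, 0.486%, 1.28%, 1.20% and 0.994% in the same order. Without an expression filter 2 members were called higher, with a background of 1.04%.

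**Figure D1:**
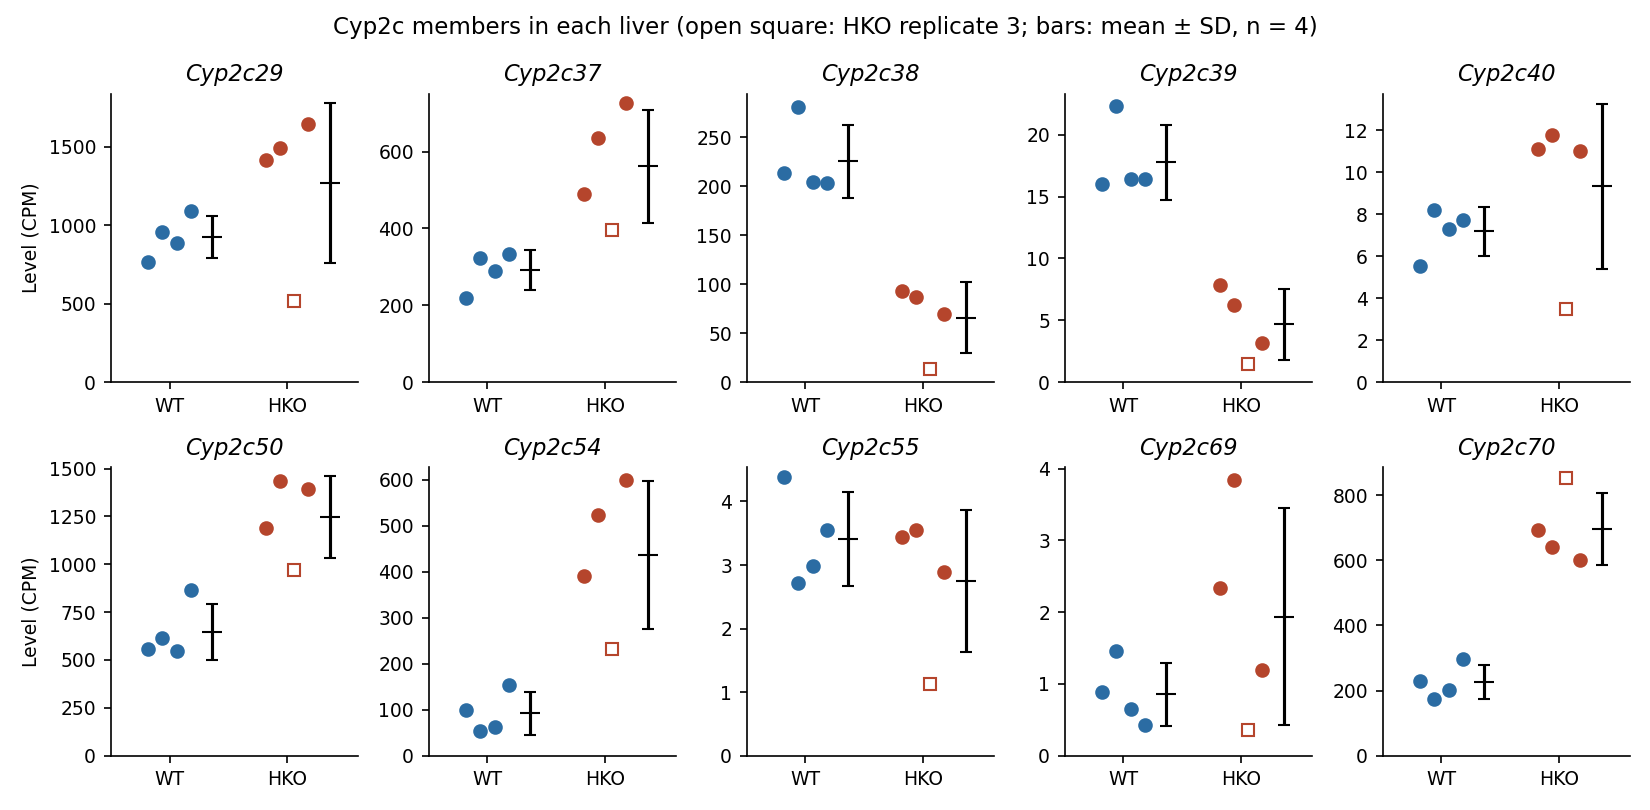
Level of each Cyp2c member in CPM (vertical axes, each starting at 0) in the 4 WT and 4 HKO livers; points are livers, the open square is HKO replicate 3, and black bars give the mean and SD of 4 livers. The HKO points of Cyp2c37, Cyp2c50, Cyp2c54 and Cyp2c70 sit above all WT points, those of Cyp2c38 and Cyp2c39 sit below them, and the square is the lowest HKO point in every panel but that of Cyp2c70.

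Among the members, levels per kb of transcript differed widely. In WT livers the order was Cyp2c29 with 519 ± 76 CPM per kb (SD, n = 4), Cyp2c50 with 357 ± 81.6, Cyp2c37 with 160 ± 28, Cyp2c70 with 131.4 ± 30.7, Cyp2c38 with 78.5 ± 12.9 and Cyp2c54 with 51.5 ± 25.8. Below them came Cyp2c39 with 9.78 ± 1.68, Cyp2c40 with 3.99 ± 0.641, Cyp2c55 with 1.71 ± 0.368 and Cyp2c69 with 0.519 ± 0.271 CPM per kb. The WT values overlapped between neighbours for Cyp2c29 and Cyp2c50, for Cyp2c37 and Cyp2c70, and for Cyp2c38 and Cyp2c54, and the other neighbours did not overlap. In HKO livers Cyp2c29 (711 ± 285 CPM per kb) and Cyp2c50 (688 ± 118) still came first. Cyp2c70 with 406 ± 64.1 then stood before Cyp2c37 with 308 ± 81 and Cyp2c54 with 244 ± 90.4, and Cyp2c38 had the sixth place with 22.9 ± 12.6 CPM per kb. There, the ranges of Cyp2c50 and Cyp2c70 and those of Cyp2c54 and Cyp2c38 were the only neighbours that did not overlap.

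Summed over the 10 members, the level was 2115, 2437, 2218 and 2970 CPM in WT replicates 1 to 4 and 4298, 4839, 2988 and 5053 CPM in HKO replicates 1 to 4. Means were thus 2435 ± 381 CPM (SD, n = 4) for WT and 4295 ± 927 CPM for HKO, a ratio of 1.76. The lowest HKO liver, replicate 3, was just above the highest WT liver, and the ranges overlapped when CPM were computed from total counts (ratio 1.67). Summed over all 15 Cyp2c rows, the ranges overlapped with TMM scaling too (ratio 1.66). HKO replicate 3 was then at 3465 CPM and WT replicate 4 at 3993 CPM. The make-up of the sum over the 10 members differed as well. Cyp2c54 supplied 3.71 ± 1.46% of it in WT and 9.88 ± 1.82% in HKO livers, and Cyp2c38 supplied 9.41 ± 1.95% and 1.45 ± 0.737%. For Cyp2c70 the share was 9.28 ± 1.58% in WT and 17.5 ± 7.59% in HKO livers, and for Cyp2c29 it was 38 ± 1.84% and 28.4 ± 7.45%. These 4 shares did not overlap between the genotypes. Those of Cyp2c39, Cyp2c40 and Cyp2c55 did not either and were lower in HKO livers, although the levels of Cyp2c40 and Cyp2c55 overlapped. Shares of the same sum depend on each other, and where some are larger others must be smaller. The sum and the shares are descriptions with no test.

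**Figure D2:**
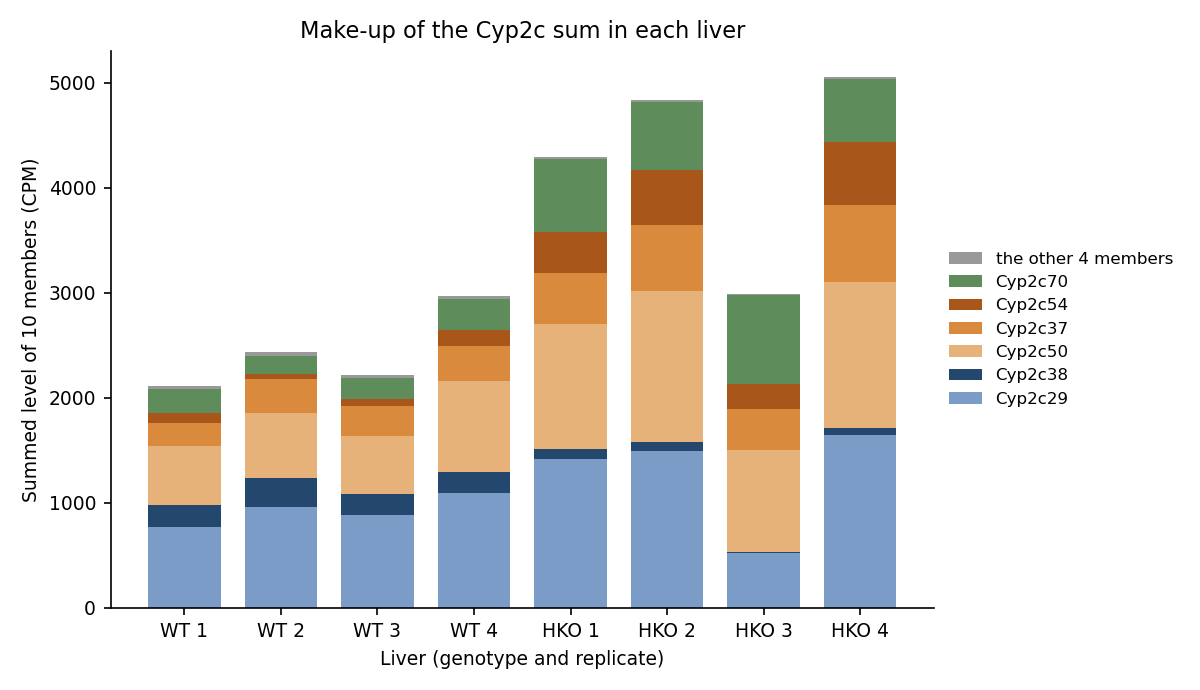
Summed level of the 10 members in each liver in CPM, stacked by member, with WT replicates 1 to 4 on the left and HKO replicates 1 to 4 on the right. The sums run from 2115 to 2970 CPM in WT and from 2988 to 5053 CPM in HKO livers, the dark blue part (Cyp2c38) is thin in all HKO livers, and HKO replicate 3 has a small Cyp2c29 part and a large Cyp2c70 part.

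Cyp2c70, on chromosome 19 from 40153361 to 40187287 (minus strand, GRCm38), was the member with the lowest adjusted p. Its enzyme hydroxylates chenodeoxycholic acid to muricholic acids. In WT replicates 1 to 4 its level was 229, 174, 202 and 297 CPM, and in HKO replicates 1 to 4 it was 693, 642, 853 and 602 CPM. The genotypes did not overlap, and HKO replicate 3 was the highest of all. The mean rose from 226 ± 52.8 CPM to 697 ± 110 CPM (SD, n = 4 each), a 3.09-fold difference. On the log2 scale this was 1.63 (SE 0.17, adjusted p = 0.000981, edgeR), and the call held in each of the 8 fits made with 1 liver fewer. Its counts were whole numbers in every liver, and no stretch of 75 or of 45 bases of its transcript occurs in a transcript of another gene, so no division of reads among paralogs shows in its values.

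The 250 bases before the RefSeq start of Cyp2c70 (GRCm38.p6, minus strand, chr19:40187287-40187536) are shown because this gene had the lowest adjusted p of the family and a match to a motif of a liver regulator. Capitals mark CAAAGTCC, the core of an HNF4 element, which begins 64 bases before the start.
Cyp2c70: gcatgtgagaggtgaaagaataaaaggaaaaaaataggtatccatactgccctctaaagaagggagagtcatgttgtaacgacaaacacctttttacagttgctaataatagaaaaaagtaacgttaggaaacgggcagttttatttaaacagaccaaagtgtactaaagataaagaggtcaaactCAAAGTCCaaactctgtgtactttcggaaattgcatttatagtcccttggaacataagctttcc
The same letters were found, on either strand of the window from 250 bases before to 50 bases after the start, in 1.42% of 32851 RefSeq promoters. They were also in the windows of Cyp2c40 and Cyp2c69 and of the other Cyp2c genes Cyp2c65, Cyp2c67 and Cyp2c68, and not in those of Cyp2c29, Cyp2c37, Cyp2c38, Cyp2c39, Cyp2c50 and Cyp2c55. A match is a description of the sequence only.

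Cyp2c37, Cyp2c50 and Cyp2c54 encode closely related enzymes that oxidise arachidonic and linoleic acid. Their coding sequences are 95.1% to 96.1% identical in pairs, and 13.8% of the 75-base windows of Cyp2c37, 17.8% of those of Cyp2c50 and 14.1% of those of Cyp2c54 occur in another gene of the trio. Since the labels leave the read length open, windows of 45 bases were counted as well, and 34.2%, 34.8% and 29.3% of these were shared. Estimated counts were fractional for the 3 genes in 7, 6 and 8 of the 8 livers. They were also fractional in 7 livers for Cyp2c23, of which no window of either length is shared, so a fractional count is no sign of shared paralog sequence by itself.

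Cyp2c50, at chr19:40089679-40113956 on the plus strand, was the most abundant of the trio. Its levels were 559, 613, 549 and 864 CPM in WT replicates 1 to 4 and 1190, 1435, 971 and 1393 CPM in HKO replicates 1 to 4. The genotypes did not overlap. The mean rose from 646 ± 148 CPM to 1247 ± 213 CPM (SD, n = 4), a log2 fold change of 0.95 (SE 0.17, adjusted p = 0.0116, edgeR), and the call held in all 8 fits that left out a liver.

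Cyp2c37, at chr19:39992424-40012244 on the plus strand, was at 220, 323, 289 and 334 CPM in WT and at 489, 636, 395 and 726 CPM in HKO replicates 1 to 4. Here too all HKO livers were above all WT livers. It rose from 291 ± 51.1 CPM to 561 ± 148 CPM (SD, n = 4), a log2 fold change of 0.95 (SE 0.20, adjusted p = 0.0306, edgeR). The size equalled that of Cyp2c50, but the call was lost more often. Without WT replicate 1, 2, 3 or 4, or without HKO replicate 2 or 4, the adjusted p lay between 0.0501 and 0.0774, with log2 fold changes of 0.80 to 1.02.

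Cyp2c54, at chr19:40037940-40073814 on the minus strand, had the largest difference among the members called. Its levels were 99.6, 52.9, 61.4 and 154 CPM in WT and 391, 523, 231 and 600 CPM in HKO replicates 1 to 4. WT replicate 4 was the highest WT liver and HKO replicate 3 the lowest HKO liver, and they did not overlap. The mean rose 4.74-fold, from 91.9 ± 46 CPM to 436 ± 161 CPM (SD, n = 4), on the log2 scale by 2.25 (SE 0.45, adjusted p = 0.0424, edgeR). Only the fits without WT replicate 4 or without HKO replicate 3 kept the call, and in the other 6 the adjusted p was 0.0829 to 0.12 with log2 fold changes of 2.05 to 2.30.

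Since reads can be divided differently among such paralogs, the counts of the trio were also summed into 1 row before the fit. The sum was 879, 988, 900 and 1352 CPM in WT and 2070, 2593, 1597 and 2718 CPM in HKO replicates 1 to 4. It rose with a log2 fold change of 1.12 (SE 0.19, adjusted p = 0.00994, edgeR), and this held in all 8 fits that left out a liver. Within the trio, Cyp2c54 stood at 17.8, 8.63, 11.2 and 17.8 CPM for every 100 CPM of Cyp2c50 in WT livers and at 32.9, 36.4, 23.8 and 43.1 in HKO livers, without overlap. Cyp2c37 stood at 38.6 to 52.7 in WT and 40.7 to 52.1 in HKO livers on the same measure, which overlapped.

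The regions upstream of Cyp2c37 and Cyp2c50 are shown because both genes had the same fold change and lie close together. The RefSeq windows of 300 bases around their starts are 88.5% identical over 295 aligned bases. The 250 bases before each start are at chr19:39992174-39992423 and chr19:40089429-40089678, both on the plus strand of GRCm38.p6.
Cyp2c37: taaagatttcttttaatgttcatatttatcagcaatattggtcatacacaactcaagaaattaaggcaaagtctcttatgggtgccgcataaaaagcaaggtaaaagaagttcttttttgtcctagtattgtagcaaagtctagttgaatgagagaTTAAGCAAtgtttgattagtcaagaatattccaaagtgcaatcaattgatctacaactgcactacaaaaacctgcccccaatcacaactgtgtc
Cyp2c50: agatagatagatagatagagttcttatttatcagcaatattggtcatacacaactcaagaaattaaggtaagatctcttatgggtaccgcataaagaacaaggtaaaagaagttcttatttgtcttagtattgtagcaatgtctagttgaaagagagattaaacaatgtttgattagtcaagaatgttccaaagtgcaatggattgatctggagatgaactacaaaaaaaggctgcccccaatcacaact
Capitals mark the only match among the 4 motifs searched, TTGCNNAA for C/EBP factors, read on the minus strand in Cyp2c37 and beginning 94 bases before the start. This motif was in 10.8% of the promoters, and Cyp2c50 holds none of the 4.

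Cyp2c29, Cyp2c38 and Cyp2c39 form a second set of relatives, whose enzymes are fatty acid epoxygenases, and Cyp2c39 can also oxidise retinoic acid. Their coding sequences are 94.2% identical between Cyp2c38 and Cyp2c39, and Cyp2c29 shares 89.1% and 89.5% with them. Of their windows of 75 bases, 0.527% in Cyp2c29, 1.86% in Cyp2c38 and 2.98% in Cyp2c39 are shared with other genes, and of those of 45 bases 2.99%, 9.38% and 15.1%. Cyp2c29 had a higher mean in HKO than in WT livers, and Cyp2c38 and Cyp2c39 had lower ones.

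Cyp2c38, at chr19:39389556-39463076 on the minus strand, was at 213, 281, 204 and 203 CPM in WT and at 93.4, 86.5, 13.6 and 69.2 CPM in HKO replicates 1 to 4. All HKO livers were below all WT livers. The means were 225 ± 37.1 CPM and 65.7 ± 36.2 CPM (SD, n = 4), a ratio of 0.292. Its log2 fold change of -1.78 (SE 0.56) had an adjusted p of 0.145 with edgeR, 0.0211 with DESeq2 and 0.0395 with limma-voom. Without HKO replicate 3 the spread between HKO livers was smaller, and edgeR gave -1.44 (SE 0.14, adjusted p = 0.000923).

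Cyp2c39 had a like pattern at a lower level. Its listed span, chr19:39347346-39569569 on the plus strand, holds Cyp2c38 on the other strand, and whether counting used strand was not given in the sources used here. The levels were 16, 22.3, 16.4 and 16.4 CPM in WT and 7.83, 6.25, 1.46 and 3.15 CPM in HKO replicates 1 to 4, with no overlap. From 17.8 ± 3.05 to 4.67 ± 2.89 CPM (SD, n = 4), the log2 fold change was -1.93 (SE 0.46), with an adjusted p of 0.0614 from edgeR, 1.27e-05 from DESeq2 and 0.0112 from limma-voom. The edgeR call was gained without HKO replicate 1 (-2.31, adjusted p = 0.043) and without HKO replicate 3 (-1.61, adjusted p = 0.0116). Cyp2c39 stood at 7.49 to 8.05 CPM for every 100 CPM of Cyp2c38 in WT and at 4.55 to 10.7 in HKO livers, ranges that overlapped.

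Cyp2c29, at chr19:39287085-39330714 on the plus strand, is a well known target of CAR in the mouse liver and was the most abundant member per kb. It was at 767, 959, 885 and 1090 CPM in WT and at 1417, 1493, 518 and 1645 CPM in HKO replicates 1 to 4. HKO replicates 1, 2 and 4 were above all WT livers, and HKO replicate 3 was below all of them. With all livers the log2 fold change was 0.46 (SE 0.33, adjusted p = 0.521, edgeR). Without HKO replicate 3 it was 0.72 (SE 0.12, adjusted p = 0.0113). In this setting 6 members were called higher and 2 lower, where the backgrounds were 1.38% and 2.40% of the genes tested.

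The counts of Cyp2c29, Cyp2c38 and Cyp2c39 summed into 1 row did not pass the threshold, with a log2 fold change of 0.20 (SE 0.34, adjusted p = 0.815, edgeR) and of 0.46 (adjusted p = 0.0512) without HKO replicate 3. Cyp2c38 stood at 27.8, 29.2, 23.1 and 18.7 CPM for every 100 CPM of Cyp2c29 in WT and at 6.59, 5.79, 2.63 and 4.21 in HKO livers. This balance within the set did not overlap between genotypes, also not in HKO replicate 3.

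Upstream regions of these 3 genes are shown to set the pair that was low in HKO livers beside Cyp2c29. The 250 bases before each start lie at chr19:39286835-39287084 (plus strand) for Cyp2c29, chr19:39463076-39463325 (minus strand) for Cyp2c38 and chr19:39347096-39347345 (plus strand) for the first of the RefSeq starts of Cyp2c39, all in GRCm38.p6.
Cyp2c29: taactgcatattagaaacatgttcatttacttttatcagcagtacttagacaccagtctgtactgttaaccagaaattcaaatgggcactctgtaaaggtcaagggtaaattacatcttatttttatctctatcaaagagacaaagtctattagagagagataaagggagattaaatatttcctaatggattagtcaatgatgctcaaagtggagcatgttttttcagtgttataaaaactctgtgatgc
Cyp2c38: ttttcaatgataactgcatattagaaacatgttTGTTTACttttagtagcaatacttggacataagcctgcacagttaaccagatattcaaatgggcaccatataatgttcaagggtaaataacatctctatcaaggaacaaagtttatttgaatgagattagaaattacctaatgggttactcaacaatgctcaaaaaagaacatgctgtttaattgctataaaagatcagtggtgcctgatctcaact
Cyp2c39: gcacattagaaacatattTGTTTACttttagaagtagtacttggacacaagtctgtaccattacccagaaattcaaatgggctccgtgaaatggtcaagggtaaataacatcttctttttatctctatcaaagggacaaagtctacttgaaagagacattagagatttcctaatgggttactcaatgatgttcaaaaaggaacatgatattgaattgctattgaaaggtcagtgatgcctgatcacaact
Capitals mark TGTTTAC, the core bound by forkhead factors of the FoxA group, which begins 217 bases before the start of Cyp2c38 and 232 bases before that of Cyp2c39, and 204 bases before the second start of Cyp2c39. It was found in 3.65% of the promoters, and in no other Cyp2c window. The windows of Cyp2c38 and Cyp2c39 are 84.9% identical, and that of Cyp2c29 is 78.8% identical to the first and 81.9% to the second. The palindrome TTCNNNGAA, to which STAT5 binds, was in 8.3% of all promoters and in no Cyp2c window, which says only that these letters are not there. No matches of different motifs overlapped in these windows.

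Cyp2c38 was also the only member with a match to the miR-33 seed in its annotated 3'UTR. The mature microRNA is encoded at chr15:82198127-82198147 on the plus strand of GRCm38.p6, and capitals mark its seed, bases 2 to 8. In the site, capitals mark AATGCAA, which pairs with part of the seed and ends in the A favoured opposite its first base. The match begins at base 418 of a 3'UTR of 1375 bases.
mmu-miR-33-5p: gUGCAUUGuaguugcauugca
Cyp2c38 site: aagcatatagAATGCAAgaagaa
Matches of this kind or of CAATGCA were in 14.8% of the 2758 tested genes with a 3'UTR of 1000 to 2000 bases. The other 9 members have 3'UTRs of 78 to 495 bases without a match, and of 2938 tested genes with 100 to 500 bases 3.13% held one.

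Cyp2c40 and Cyp2c69 belong to a set with Cyp2c67 and Cyp2c68, in which coding sequences are 96.5% to 98.1% identical. As many as 57.1% of the 75-base windows of Cyp2c40 and 43.2% of those of Cyp2c69 occur in another gene, and 75.2% and 57.4% of their 45-base windows do, so the division of reads among the 4 genes is uncertain. Cyp2c40, at chr19:39767073-39812815 on the minus strand, was at 5.55, 8.21, 7.28 and 7.72 CPM in WT and at 11.1, 11.8, 3.47 and 11 CPM in HKO replicates 1 to 4. HKO replicate 3 was the lowest of all livers and the other HKO livers were the highest. The log2 fold change was 0.37 (SE 0.34, adjusted p = 0.616, edgeR), and 0.65 (SE 0.15, adjusted p = 0.0408) without HKO replicate 3.

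Cyp2c69, at chr19:39842660-39886770 on the minus strand, was the lowest member, at 0.428 to 1.46 CPM in WT and 0.358 to 3.85 CPM in HKO livers. Its log2 fold change of 1.15 (SE 0.64, adjusted p = 0.369, edgeR) did not pass the threshold, also not without HKO replicate 3 (1.55, adjusted p = 0.0963). Nearly all counts of the set were assigned to Cyp2c67 and Cyp2c68. Cyp2c67 was at 330, 372, 327 and 408 CPM in WT and 588, 530, 130.9 and 571 CPM in HKO replicates 1 to 4, a log2 difference of 0.34 (adjusted p = 0.743, edgeR), or 0.65 (adjusted p = 0.00709) without HKO replicate 3. Cyp2c68 was at 281 to 333 CPM in WT and at 407, 420, 106 and 398 CPM in HKO livers (0.15, adjusted p = 0.886, edgeR, or 0.45, adjusted p = 0.021, without HKO replicate 3). The 4 genes summed gave 0.26 (SE 0.42, adjusted p = 0.804, edgeR), and 0.56 (SE 0.10, adjusted p = 0.0113) without HKO replicate 3.

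Cyp2c55, at chr19:39007019-39042688 on the plus strand, is known as an enzyme of the intestine that CAR and PXR ligands induce in the liver. It was low, at 4.38, 2.72, 2.98 and 3.55 CPM in WT and 3.44, 3.55, 1.13 and 2.89 CPM in HKO replicates 1 to 4. The genotypes overlapped, and the log2 fold change was -0.32 (SE 0.32, adjusted p = 0.649, edgeR), or -0.03 (SE 0.23) without HKO replicate 3. None of its 75-base windows and 0.974% of its 45-base windows occur in another gene, and all its counts were whole.

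Of the Cyp2c genes outside the 10 members, Cyp2c23, which was formerly named Cyp2c44 and encodes an arachidonic acid epoxygenase, was at 174, 175, 210 and 281 CPM in WT and 409, 418, 239 and 529 CPM in HKO replicates 1 to 4. Its log2 fold change was 0.93 (SE 0.25) with an adjusted p of 0.0882 from edgeR, 0.00062 from DESeq2 and 0.0481 from limma-voom. Cyp2c65 was at 1.47 CPM in HKO replicate 2 and at most 0.0657 CPM in every other liver. The pseudogene Cyp2c53-ps was at 0 to 0.0828 CPM in WT livers and 0.341 to 0.696 CPM in HKO livers, without overlap, with at most 9.02 counts in a liver. Neither gene passed the expression filter. In the edgeR fit without a filter Cyp2c53-ps was called higher (3.75, SE 0.80, adjusted p = 0.0142), on counts near the floor, and Cyp2c65 was not (adjusted p = 0.444).

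**Figure D3:**
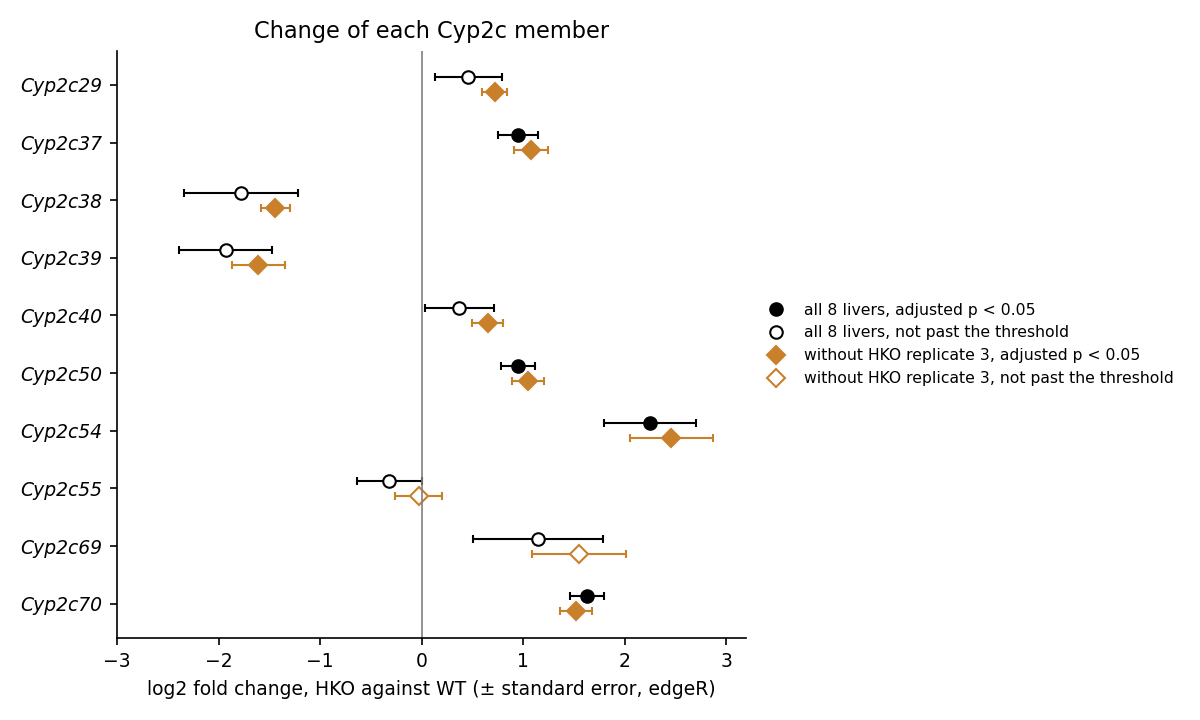
Log2 fold change of each member, HKO against WT, with its standard error (horizontal axis), from edgeR with all 8 livers (black circles) and without HKO replicate 3 (orange diamonds); filled symbols have an adjusted p under 0.05. With all livers 4 members are filled, all to the right of 0; without HKO replicate 3, 6 are filled to the right and 2 to the left, and the error bars of Cyp2c29, Cyp2c38 and Cyp2c40 are shorter.

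The members called higher lie next to each other on the chromosome. From Cyp2c55 to Cyp2c70, chromosome 19 lists 14 genes over 1180 kb, all of them Cyp2c, while Cyp2c23 lies 4998 kb from the start of Cyp2c55. The 4 members called higher, in the order Cyp2c37, Cyp2c54, Cyp2c50 and Cyp2c70, are the last 4 genes of this stretch and span 195 kb. Cyp2c38 and Cyp2c39 are neighbours as well. Sequence relation and position go together here, except for Cyp2c70, whose coding sequence is 64.9% to 68.7% identical to those of the other members.

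**Figure D4:**
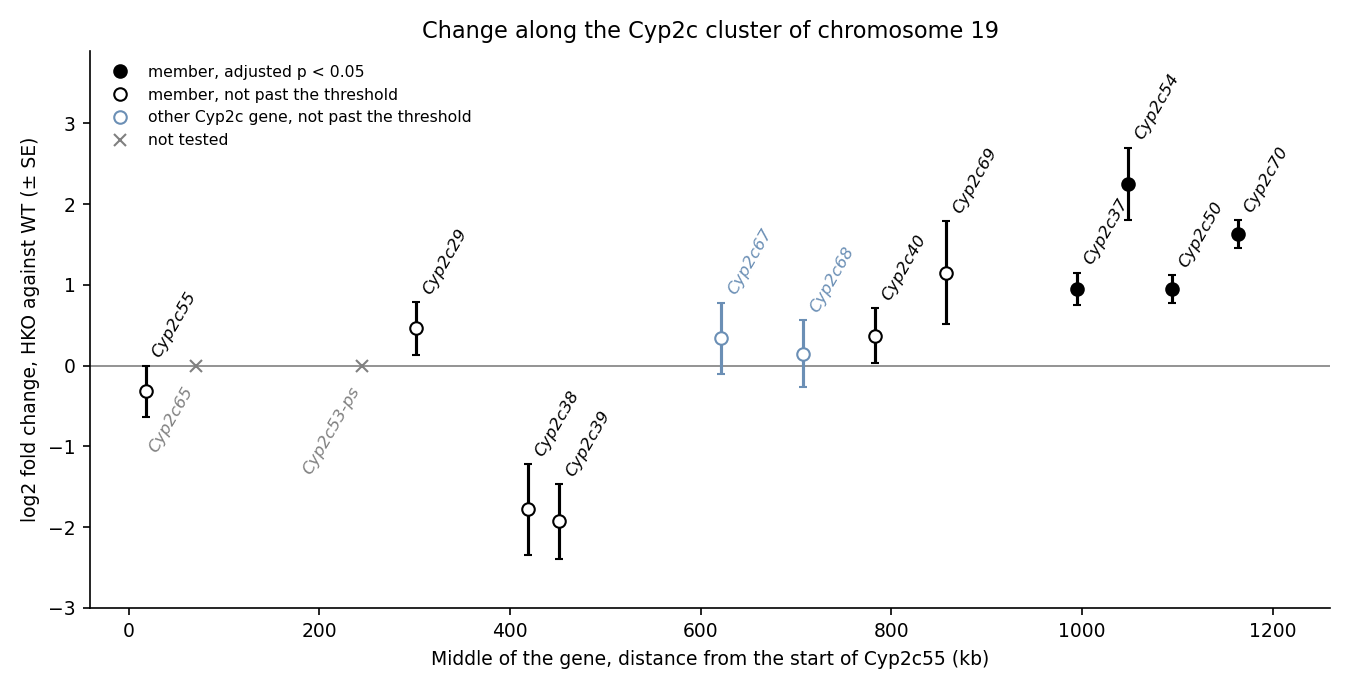
Log2 fold change, HKO against WT, with its standard error (vertical axis) of each Cyp2c gene of the cluster, placed by the distance of its middle from the start of Cyp2c55 in kb (horizontal axis); black marks members, blue other Cyp2c genes, and filled symbols an adjusted p under 0.05. The 4 filled symbols, with log2 fold changes from 0.95 to 2.25, are the last 4 genes on the right, and crosses at 0 mark 2 genes that were not tested.

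HKO replicate 3 had the lowest level of the 4 HKO livers in 9 of the 10 members and the highest in 1, Cyp2c70. It was the lowest of the 4 in 25.7% and the highest in 24.6% of all genes tested. In 6 members, Cyp2c29, Cyp2c38, Cyp2c39, Cyp2c40, Cyp2c55 and Cyp2c69, it was the lowest of all 8 livers, as in 14.1% of all genes tested. Relative to the mean of the other HKO livers its level was 16.4% for Cyp2c38, 34.1% for Cyp2c29, 72.5% for Cyp2c50 and 132% for Cyp2c70. The same liver had the highest summed level of 13 male-biased liver genes, 36379 CPM, where WT livers had 4944 to 12194 CPM and the lowest HKO liver had 10134 CPM. It had the lowest sum of 16 female-biased genes, 153 CPM, where WT livers had 502 to 768 CPM. Its depth was the highest of the 8. Its summed level of hepatocyte markers was the lowest of the 8, at 66212 CPM, of which Alb made up 47064 CPM. Alb was the only marker of that list with its lowest level in this liver. The part of these values in the Cyp2c levels was not tested.

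Genes that act on the family or with it were taken from 10 lists, chosen with earlier results of these data known. Of 16 nuclear receptors and factors that act on Cyp2c genes, 2 rose and 1 fell, and the median log2 fold change was 0.06. Foxa3, a forkhead factor of hepatocytes, was at 16.5, 17.9, 14.6 and 20.4 CPM in WT and 42.8, 31, 41.8 and 27.8 CPM in HKO livers (log2 fold change 1.05, SE 0.15, adjusted p = 0.00433, edgeR). Hnf4a, the nuclear receptor that holds the hepatocyte state, rose from 446 ± 16.8 to 572 ± 56.7 CPM (0.36, SE 0.09, adjusted p = 0.0406). Ppara, the fatty acid receptor, fell from 671 ± 9.52 to 536 ± 35.1 CPM (-0.33, SE 0.08, adjusted p = 0.0358). The genes for CAR and PXR were not called, with Nr1i3 at 85.5 ± 10 and 79.3 ± 9.59 CPM and Nr1i2 at 56.2 ± 7.93 and 47.4 ± 3.22 CPM in WT and HKO livers.

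Of 9 tested genes of the Cyp2b and Cyp3a families, listed for drug-metabolising P450s that CAR and PXR induce, 1 fell and 0 rose. In this list 8 had a log2 fold change below 0 and the median was -1.05. Cyp2b9 (-2.48), Cyp2b13 (-2.74), Cyp3a41a (-1.05) and Cyp3a44 (-1.16) among them are also on the list of female-biased genes. The median is therefore not that of CAR and PXR targets alone, and the lists are not separate observations. The other tested genes of the list ran from -1.14 to 0.42. The gene that fell was Cyp3a59, from 56.2 ± 7.07 to 25.5 ± 8.59 CPM (-1.14, SE 0.23, adjusted p = 0.0306, edgeR). Cyp3a13 was at 258 ± 39.4 CPM in WT livers and 346 ± 31.8 CPM in HKO livers (0.42, adjusted p = 0.0567, edgeR). Cyp3a11 was at 1868 ± 553 and 1035 ± 222 CPM, without overlap (-0.85, adjusted p = 0.0592, edgeR). Cyp2b10 was low, at 1.78 ± 1.96 and 1.64 ± 1.91 CPM (-0.19, adjusted p = 0.944, edgeR). Among 5 tested genes of other fatty acid epoxygenases and epoxide hydrolases 1 fell, Ephx1, whose microsomal enzyme opens epoxides. It was at 278, 381, 333 and 330 CPM in WT and 190, 184, 159 and 144 CPM in HKO livers (-0.97, SE 0.11, adjusted p = 0.00126, edgeR). The epoxygenase gene Cyp2j6 was at 128 ± 12.4 and 141 ± 12.2 CPM (adjusted p = 0.433, edgeR), and the median of the list was -0.06. Of 14 genes of electron donors and haem supply none was called, with a median of -0.19 and the lowest p for Cyb5b, at 686 ± 69.4 and 555 ± 68.4 CPM (adjusted p = 0.142), and Cpox, at 298 ± 12.4 and 259 ± 22.3 CPM (adjusted p = 0.19). Por was at 142 ± 29.9 and 193 ± 85.5 CPM (adjusted p = 0.537, edgeR).

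Sex-biased liver genes depend on growth hormone acting through STAT5B. Of 13 male-biased genes 1 rose, Ugt2b1, from 673 ± 116 to 1137 ± 274 CPM (0.76, SE 0.18, adjusted p = 0.0393, edgeR). All 13 had a log2 fold change above 0, with a median of 1.77, and Susd4 followed at 8.41 ± 2.43 and 22.5 ± 10.3 CPM (adjusted p = 0.0598). Of 10 female-biased genes tested 1 fell, Cyp2a4, from 23.4 ± 11.6 to 2.11 ± 1.59 CPM (-3.51, SE 0.67, adjusted p = 0.0349, edgeR). In this list 9 genes had a log2 fold change below 0, with a median of -1.31. Over all genes tested, 6402 were above 0 and 5993 below. Cyp3a41a, like Cyp2b9, Cyp2b13 and Cyp3a44 also on the list of Cyp2b and Cyp3a genes, was at 6.27 ± 3.06 and 3.03 ± 0.803 CPM (adjusted p = 0.09, edgeR). No gene of growth hormone signalling was called among 8 tested, with a median of 0.06. Stat5a was at 10.8 ± 0.791 and 7.38 ± 1.86 CPM (adjusted p = 0.0963), Socs2 at 13.8 ± 7.75 and 30.2 ± 19.1 CPM (adjusted p = 0.355) and Stat5b at 42.6 ± 3.73 and 42.5 ± 8.87 CPM (adjusted p = 0.992, edgeR).

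Around Cyp2c70 in bile acid synthesis, 2 of 13 other enzymes rose and 2 fell, with a median log2 fold change of 0.07. Cyp27a1, which starts the acidic pathway, rose from 244 ± 12.1 to 351 ± 62.3 CPM (0.52, SE 0.12, adjusted p = 0.0265, edgeR), and Slc27a5, a bile acid ligase, rose from 413 ± 23.4 to 539 ± 69.1 CPM (0.38, SE 0.10, adjusted p = 0.0488). Cyp8b1, the sterol hydroxylase needed for cholic acid, fell from 217 ± 13.6 to 121 ± 29.5 CPM (-0.84, SE 0.16, adjusted p = 0.0176). Hsd17b4, of peroxisomal side chain shortening, fell from 606 ± 44.4 to 410 ± 27.2 CPM (-0.56, SE 0.09, adjusted p = 0.00433). Cyp7a1, the first enzyme of the classical pathway, was at 124 ± 40.4 and 311 ± 113 CPM and did not pass the threshold (1.33, adjusted p = 0.0773, edgeR).

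Liver zonation was described by 14 pericentral and 13 periportal hepatocyte genes, since drug-metabolising P450s are mostly pericentral. In each list 2 rose and 1 fell, and the medians were 0.33 and 0.38. Among pericentral genes, Cyp1a2 rose from 151 ± 14.8 to 522 ± 166 CPM (1.79, SE 0.23, adjusted p = 0.00491, edgeR) and Gulo from 275 ± 28.6 to 438 ± 26 CPM (0.67, adjusted p = 0.00235), while Aldh3a2 fell from 921 ± 107 to 419 ± 77.7 CPM (-1.14, adjusted p = 0.00154). Among periportal genes, the urea cycle genes Cps1 (1.26, adjusted p = 0.00433, edgeR) and Ass1 (0.80, adjusted p = 0.028) rose and Hsd17b13 of lipid droplets fell (-0.77, adjusted p = 0.00914).

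Markers of other cells were examined as 6 lists beside that of hepatocytes. No gene on the cholangiocyte, macrophage, stellate, endothelial or lymphocyte list was called, out of 3, 5, 5, 5 and 1 tested. The median log2 fold changes of these lists were 0.61, -0.01, 0.18, 0.51 and 0.20. The lowest p among them belonged to Epcam (3.11, adjusted p = 0.29) and Sox9 (0.61, adjusted p = 0.355), Clec4f (0.20, adjusted p = 0.874) and Marco (-1.08, adjusted p = 0.533), Lrat (-0.18, adjusted p = 0.62) and Rgs5 (0.19, adjusted p = 0.635), Clec4g (0.65, adjusted p = 0.312) and Kdr (0.69, adjusted p = 0.548), and Ptprc (0.20, adjusted p = 0.535, edgeR). Ptprc marks leukocytes in general, so no marker particular to lymphocytes was high enough to be tested. Cholangiocyte markers summed to 40.6 to 50.8 CPM in WT and 30.8 to 107.8 CPM in HKO livers. The highest of these sums was in HKO replicate 2. Macrophage markers summed to 32.8 to 96.3 CPM in WT and 26.5 to 88.8 CPM in HKO livers. Of 6 hepatocyte markers 3 rose, Cps1 as above, Tat (0.87, adjusted p = 0.0165) and Serpina1a (0.61, adjusted p = 0.0244), and Alb was at 74932 ± 14811 CPM in WT livers and 73522 ± 21139 CPM in HKO livers. Of the markers of pancreas and gut, Cela1 rose from 5.47 ± 1.75 to 14.2 ± 4.18 CPM (1.38, adjusted p = 0.0233, edgeR), and the second one listed, Vil1, was too low to be tested. The part of these markers in the Cyp2c differences was not tested.

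Outside the family, the genes whose log2 CPM followed Cyp2c50 most closely over the 8 livers were Arl13b (Pearson r = 0.986), Med18 (r = 0.975) and Slc16a10 (r = 0.971). For Cyp2c38 they were Slc16a7 (r = 0.996), Bche (r = 0.990) and Abcc3 (r = 0.984). Slc16a10, an aromatic amino acid transporter, was at 133 ± 16.1 CPM in WT livers and 206 ± 26 CPM in HKO livers, and Slc16a7, a monocarboxylate transporter, at 339 ± 42.7 and 169 ± 56.5 CPM. These are descriptions of 8 points that share their genotype groups and library scaling.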

How the data were processed

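RNA-Seq was analysed from 4 WT and 4 HKO livers. The authors deposited estimated counts per gene from Partek's expectation-maximization quantification of STAR alignments, without normalization; versions were not given in the sources used here. Of the values, 80.5% are whole numbers, and reads that match several genes are divided among them. Since the labels give a small RNA kit beside rRNA depletion, and 45 cycles beside 75 bp reads, the type of library and the read length are uncertain. Nothing in the labels pairs the mice.

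Estimated counts were rounded and tested with edgeR 4.0.16 in R 4.3.3 (TMM scaling, minimum count 10, robust quasi-likelihood test, Benjamini-Hochberg adjustment over 12395 genes, threshold 0.05). The test behind the study's RNA-Seq genes was not given in the sources used here, so only the adjusted p threshold was taken from the study. The standard error of a log2 fold change was taken as its size over the root of F. CPM use TMM-scaled library sizes. The same comparison was also run with DESeq2 1.42.0, limma-voom (limma 3.58.1), the legacy quasi-likelihood method, RLE and total count scaling, other filters, the replicate number as a block, and each liver left out. On simulated counts for this comparison (12395 genes, 200 changed), edgeR found 76% of the genes with a log2 change of 1 and 90% of those with 2. Unchanged genes made up 8.79% of its calls, 12.8% of those of DESeq2 and 6.94% of those of limma-voom. P-values set the difference between genotypes against the spread between mice of the same genotype. They cannot tell genotype apart from a library order that followed the column numbers.

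Coordinates are those listed (GRCm38). Transcripts came from GENCODE vM21, taking for each gene the protein-coding transcript with the longest coding sequence, and promoters and the microRNA from RefSeq (GRCm38.p6), which had a promoter for 9 of the 10 members. Identities are from MAFFT alignments. The text names all members, the other Cyp2c genes with at least 10 counts in a liver, the genes of each list past the threshold (or the 2 with the lowest p where fewer than 2 passed), and the 3 genes most like Cyp2c50 and Cyp2c38. Other genes, such as Cyp2c53-ps, Cyp2b10, Cyp3a11, Por, Cyp7a1, Nr1i2, Nr1i3, Stat5b and Alb, were chosen after their values were seen. Members and lists were chosen with earlier results of these data known.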

Additional observations from a re-analysis of the deposited data

Results flagged for a closer look

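In 5 of the 28 sets of 4 livers examined for the Cyp2c genes and their sum, 1 liver stood so far from the other 3 that Dixon's criterion for an outlying value was met, where chance gives about 1.4. WT replicate 2 was above the other WT livers in Cyp2c38, at 281 CPM against 203 to 213 CPM, and in Cyp2c39, at 22.3 CPM against 16 to 16.4 CPM. HKO replicate 3 was below the other HKO livers in Cyp2c40, at 3.47 CPM against 11 to 11.8 CPM. The same liver was below the others in Cyp2c67, at 130.9 CPM against 530 to 588 CPM, and in Cyp2c68, at 106 CPM against 398 to 420 CPM. Cyp2c40, Cyp2c67 and Cyp2c68 share reads, so these are not separate observations.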

How the results depend on the processing

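The number of members called higher, 4 with all livers, was 2 without an expression filter (where 1.04% of 17810 genes were called higher) and 2 to 6 in the fits that omit 1 liver. The number called lower, 0 with edgeR, was 2 with DESeq2, 2 with limma-voom and 0 to 2 in the fits that omit 1 liver. Over all genes, DESeq2 called 383 higher and 606 lower, total count scaling 119 and 621, the replicate block 147 and 309, and the fits without a liver 61 to 230 higher and 151 to 368 lower. Cyp2c50 and Cyp2c70 kept their call under every alternative run, and no member changed the direction of its difference. Cyp2c37 (adjusted p = 0.0502) and Cyp2c54 (adjusted p = 0.0665) lost theirs without the filter. The sum of Cyp2c40, Cyp2c67, Cyp2c68 and Cyp2c69 had log2 fold changes of 0.13 to 0.56 without a liver, and only the fit without HKO replicate 3 passed the threshold. Over all genes, same-numbered livers did not deviate together (correlations of -0.148 to 0.0116), which gives no sign of a pairing by number but cannot exclude one. With the replicate block 4 members were called higher and 0 lower. The block gave a smaller SE for all members but Cyp2c38 and Cyp2c70. For Cyp2c69, at 0.358 CPM in its lowest liver, depth limits what can be seen.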
